A study of Mus musculus with 16 samples.

Results

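The genes described here are those whose response to alternate-day fasting differed between mouse prostate tumours that received the antiandrogen enzalutamide and tumours that did not. They were chosen with 1 contrast in 1 fit to all 16 tumour libraries, the fasting effect on enzalutamide minus the fasting effect without it, and the threshold was a Benjamini-Hochberg adjusted p under 0.05. Of 18946 genes tested, 587 passed (3.1% of those tested). A value above 0 in this contrast, called the interaction below, means that the log2 fasting effect was higher on enzalutamide than without it.

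Enzalutamide blocks androgen signalling, on which prostate epithelium and most prostate cancers depend. The glucocorticoid receptor acts on many of the same genes, and FKBP5 and ZBTB16 are classic targets of both hormones. Fasting lowers glucose and insulin, raises circulating glucocorticoid in rodents, and shifts cells from glycolysis towards fat use. In tumours, glycolysis is also driven by hypoxia-inducible factors, which switch on glucose uptake, lactate production, collagen hydroxylation and vessel growth genes together.

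The tumours grew from B6MyC-CaP cells, a line from the Hi-MYC mouse on a C57BL/6 background, placed under the skin of male C57BL/6 mice aged 6 weeks. Hi-MYC mice carry a human MYC transgene on a probasin promoter, which androgen drives in prostate epithelium, and all 4 groups share it. Vehicle and ENZ mice ate chow freely, while ADF and ADF + ENZ mice alternated 24 h without food and 24 h with it. ENZ and ADF + ENZ mice received enzalutamide daily by gavage at 20 mg/kg. Each group had 4 libraries of whole-tumour RNA, 1 library per numbered tumour. The labels do not say whether a fasted mouse was killed after a fasting day or a fed day, nor that each tumour came from its own mouse, so p-values measure the spread between these libraries.

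Gene counts ran from 10072489 to 25505655 per library. Of the luminal markers, Krt8 lay between 186.8 and 675.6 CPM (reads of a gene scaled to the total gene reads of its library) and Hoxb13, the prostate homeobox factor, between 5.36 and 13.8. Probasin (Pbsn) had no count in any library and the basal keratins Krt5 and Krt14 had at most 3 counts in a library. The luminal and basal lists had no member past the threshold for the interaction. Library ADF + ENZ 3 lay at 39.7 on the first principal component, with the other 15 between -22.1 and 17.6. That library also had the lowest gene counts (10072489) and the fewest genes with a count (24884). Its percent of all counts not aligned (16.7%) and its mitochondrial percent of gene counts (2.01%) were the highest.

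The ADF libraries differed in make-up from the rest. Counts falling in no gene were 32.9% ± 2.73 (SD, n = 4) of all counts in ADF, against 25.9% ± 2.25 under Vehicle, 25.9% ± 1.45 under ENZ and 24.0% ± 2.05 under ADF + ENZ. Counts aligned to several places were 4.70% ± 0.414 under ADF and 7.44% ± 0.294 under Vehicle, 7.89% ± 0.0666 under ENZ and 7.09% ± 0.591 under ADF + ENZ. No ADF library overlapped another group in either measure, and ADF differed from Vehicle and from ADF + ENZ at the smallest p that an exact permutation test of 4 against 4 allows (two-sided p = 0.0286 of 70 assignments; adjusted p = 0.0779 over 30 such tests). Counts marked ambiguous were 2.85% of all counts under ADF, 4.002% under Vehicle, 4.47% under ENZ and 3.63% under ADF + ENZ. In that measure ADF lay below every other group, and ADF + ENZ lay below ENZ, without overlap and at the same exact p and adjusted p; these are the groups of the fasting contrast on drug. Counts not aligned were 10.7% under ADF and 8.24% under Vehicle, again without overlap and at those p-values. Neither of these last measures was fitted as a covariate. With the percent in no gene as a covariate, edgeR called 0 genes for the interaction at the adjusted threshold and 1014 at an unadjusted p under 0.05, against 4027 without it. The 587 genes kept their sign in 586 cases, and the median interaction of the 413 positive genes was 0.40 in place of 0.65. With the percent aligned to several places as covariate, 2 genes passed, 585 kept their sign, and that median was 0.65. Because ADF enters the interaction and stands apart in these measures, library make-up and the ADF condition cannot be told apart here. Every result below for the interaction or for a contrast with ADF carries this limit. Fasting on drug uses no ADF library, yet its calls went from 206 to 43 with the percent in no gene as covariate. With the percent aligned to several places they went to 1.

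**Figure D1:**
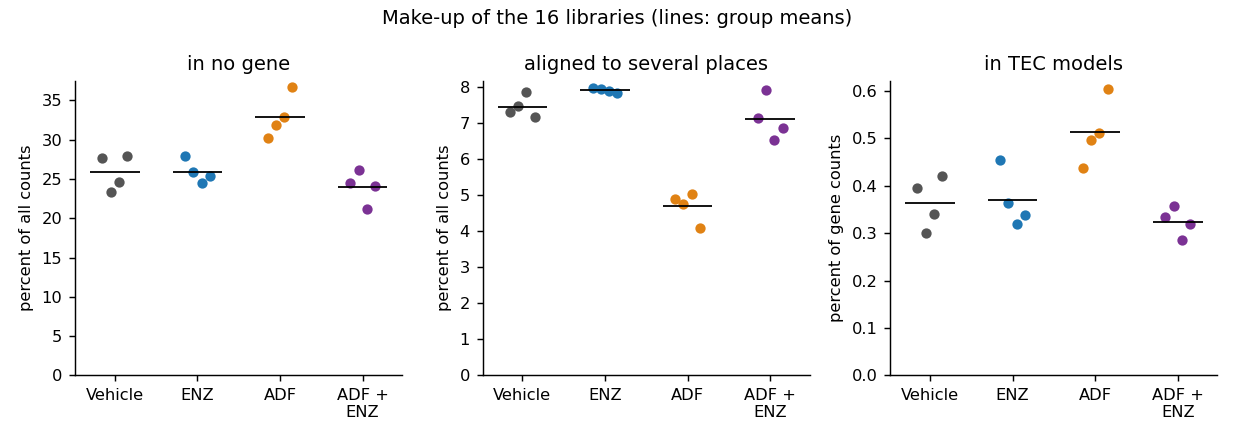
Each point is 1 tumour library, grouped by treatment, and each line a group mean; the vertical axes give the percent of all counts in no gene, the percent aligned to several places, and the percent of gene counts in TEC models (transcript models awaiting experimental support). The ADF libraries lie above the other 12 libraries in the first panel, at 30.3% to 36.7%, and below them in the second.

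Of the 587 genes, 413 had an interaction above 0 (2.18% of genes tested) and 174 below 0 (0.918%). Among the 413, the fasting effect was below 0 without drug and above 0 on drug in 372, and below 0 in both in 40. This sign pattern follows in part from choosing genes by the difference and is given as description. Of the 413, 269 passed for fasting without drug and 48 for fasting on drug, and 5 passed in both with opposite signs. Of all genes tested, 9.01% and 1.09% passed for these contrasts. The counts among the 413 also follow in part from the choice, because the interaction is the difference of these contrasts. The group mean of the 413 genes was highest in Vehicle for 242 and in ADF + ENZ for 164, and lowest in ADF for 259 and in ENZ for 150. The 174 negative genes were a mirror image in sign, with 171 above 0 without drug and below 0 on drug, 138 highest in ADF and 36 highest in ENZ.

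Over all genes, 1707 passed for fasting without drug (9.01%; 4.05% higher and 4.96% lower) and 206 for fasting on drug (1.09%; 0.813% higher and 0.274% lower). These contrasts share no library. Across the 18946 genes their log2 values had a Pearson correlation of 0.034 and a Spearman correlation of 0.006, a description across genes, which are not independent replicates.

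The count of genes moved with single libraries. It was 224 without Vehicle 2, 190 without Vehicle 3, 325 without ENZ 2, 357 without ENZ 3, 391 without ENZ 4, 309 without ADF 2, 294 without ADF 3, 148 without ADF 4, 209 without ADF + ENZ 1, 175 without ADF + ENZ 3 and 908 without ADF + ENZ 2. The other 5 fits gave between 400 and 739. All 587 genes kept their sign in each of these 16 fits, and 124 genes passed in all of them, 99 above 0 and 25 below.

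**Figure D2:**
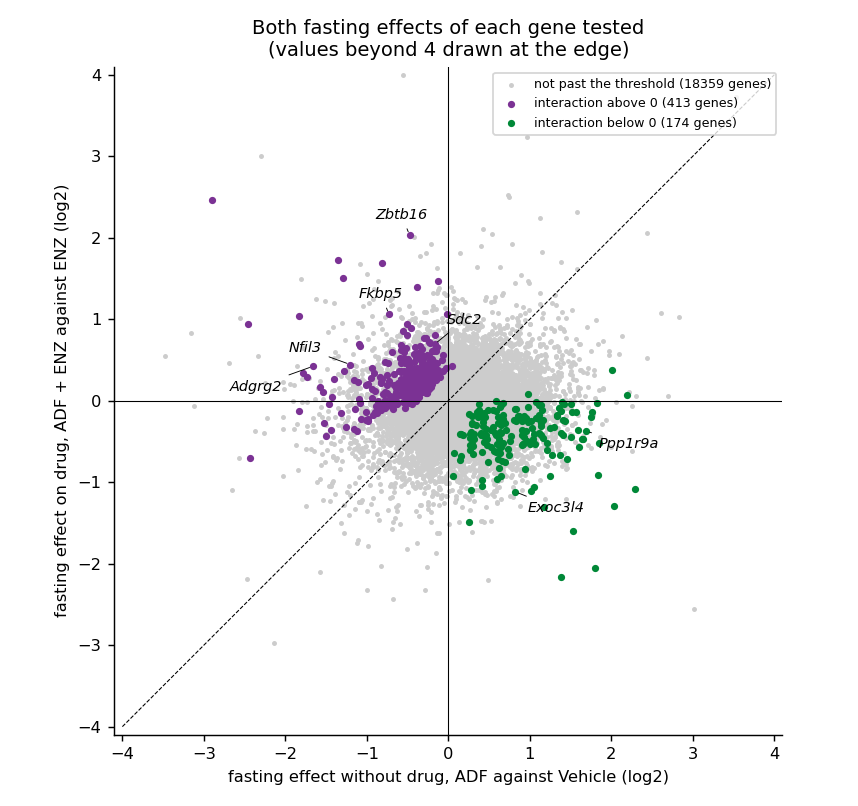
Each point is 1 of 18946 genes; the horizontal axis is the log2 fasting effect without drug (ADF against Vehicle), the vertical axis the log2 fasting effect on drug (ADF + ENZ against ENZ), and the dashed line marks equal effects. Of the 413 genes in purple, 372 lie in the upper left, and 171 of the 174 genes in green lie in the lower right.

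Enzalutamide lowered 7 of 24 glucocorticoid-induced genes in fed mice and raised 0, and fasting on drug raised 5 and lowered 0. Both contrasts use the ENZ libraries. Of 32 androgen response genes the drug lowered 8 and raised 1 in fed mice, and fasting on drug raised 4 and lowered 0. In fasted mice the drug raised 3 and lowered 0 of the glucocorticoid-induced genes, and raised 5 and lowered 3 of the androgen response genes. Over all genes tested the drug raised 1.81% and lowered 3.62% in fed mice, and raised 8.72% and lowered 7.54% in fasted mice. Fkbp5 encodes a steroid receptor co-chaperone that holds the glucocorticoid receptor in a low-affinity state and is induced by androgen and glucocorticoid. Its level was 306, 422, 443.5 and 429 CPM under Vehicle, 203, 155, 143 and 180.4 under ENZ, 343, 188, 207.5 and 228 under ADF, and 402, 294, 451 and 273 under ADF + ENZ (CPM, with library sizes scaled by TMM). Every ADF + ENZ library lay above every ENZ library, while ADF 1 at 343 lay above Vehicle 1 at 306. Fasting lowered Fkbp5 without drug (log2 -0.73, edgeR adjusted p = 0.0346) and raised it on drug (1.06, adjusted p = 0.0240). The interaction was 1.79 (SE 0.283, adjusted p = 0.00787) and passed in all 16 fits with 1 library left out. It did not pass in edgeR with the percent in no gene as covariate (1.32, adjusted p = 0.8735). Nor did it with the percent aligned to several places (1.96, adjusted p = 0.358). Read the other way, the drug effect was -1.23 in fed mice (adjusted p = 0.00240) and 0.55 in fasted mice (adjusted p = 0.0678).

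The Fkbp5 promoter is shown because Fkbp5 is the best known steroid receptor target among the passing genes. It runs from 250 bases before to 50 after the RefSeq start (GRCm38.p6, chr17:28486100-28486399, minus strand). Capitals mark the run that holds ACGTG or its complement CACGT, the core of the hypoxia response element, which a CACGTG E-box holds on both strands.
Fkbp5: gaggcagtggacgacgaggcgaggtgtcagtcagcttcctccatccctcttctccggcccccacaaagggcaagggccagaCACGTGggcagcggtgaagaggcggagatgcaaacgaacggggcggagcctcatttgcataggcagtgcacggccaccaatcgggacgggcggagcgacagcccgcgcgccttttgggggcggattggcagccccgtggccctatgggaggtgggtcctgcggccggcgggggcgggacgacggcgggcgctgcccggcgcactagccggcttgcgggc
The steroid receptor core AGAACA or TGTTCT was searched on both strands of the same window. It was found in 0 of the 7 promoters matched among the 10 androgen or glucocorticoid list genes past the threshold, and in 13.0% of the promoters of genes tested. That says only that these letters are not in these windows.

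Zbtb16 encodes PLZF, a transcriptional repressor induced by both hormones. Its level was 93.1, 79.8, 101 and 101 CPM under Vehicle, 21.2, 10.9, 9.07 and 19.4 under ENZ, 111, 32.3, 58.2 and 68.7 under ADF, and 81.2, 76.3, 34.2 and 55.2 under ADF + ENZ. All 4 ENZ libraries lay below all other libraries. The drug lowered it in fed mice (log2 -2.63, edgeR adjusted p = 0.00223), and the drug effect in fasted mice was -0.12 (adjusted p = 0.839). Fasting on drug raised it by 2.03 (adjusted p = 0.0306), and the interaction was 2.51 (SE 0.530, adjusted p = 0.0292). The call was lost without Vehicle 2, Vehicle 3, ENZ 2, ENZ 3, ADF 3, ADF 4 or ADF + ENZ 1, with values of 2.27 to 2.86 over the 16 fits.

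Klf9, a Krüppel-like factor that glucocorticoid induces, was highest with both treatments. Its level was 182, 221, 203 and 178 CPM under Vehicle, 193.5, 126, 134 and 111 under ENZ, 193, 115, 131 and 112 under ADF, and 242, 231, 276 and 235 under ADF + ENZ, so that all 4 ADF + ENZ libraries were above all others. Its interaction was 1.31 (SE 0.245, edgeR adjusted p = 0.0141, in all 16 fits), with fasting effects of -0.51 (adjusted p = 0.0740) without drug and 0.80 (adjusted p = 0.0374) on drug. Bcl6, a transcriptional repressor, rose with fasting on drug (0.63, adjusted p = 0.0375), with 36.4, 42.65, 41.3 and 37.6 CPM under ENZ and 49.5, 65.2, 76.8 and 54.35 under ADF + ENZ. Its interaction of 0.79 (adjusted p = 0.0391) was lost without Vehicle 2, Vehicle 3, Vehicle 4, ENZ 1, ENZ 2, ENZ 3, ENZ 4, ADF 2, ADF 3, ADF 4 or ADF + ENZ 3, with values of 0.66 to 0.91.

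Of the 24 glucocorticoid-induced genes tested, 5 passed above 0 and 0 below (Fkbp5, Zbtb16, Klf9, Mt1 and Bcl6), and the median interaction was 0.81, against -0.02 over all genes tested. Among all genes tested, 2.18% passed above 0. The count of the list was 3 without Vehicle 2, Vehicle 3, ENZ 2, ENZ 3, ADF 3 or ADF 4, and between 3 and 7 over all 16 fits. With the percent in no gene as covariate 0 of the 24 passed and the median was 0.52. With the percent aligned to several places 0 passed and the median was 0.43. Fasting raised 1 of the 24 and lowered 4 without drug, and raised 5 and lowered 0 on drug. Tsc22d3 (GILZ), a glucocorticoid-induced leucine zipper protein, did not pass: its interaction was 0.96 (SE 0.438, edgeR adjusted p = 0.230). Its level was 78.8, 40.7, 33.95 and 28.8 CPM under ENZ and 84.7, 90.4, 85.7 and 75.3 under ADF + ENZ, so ENZ 1 lay within the ADF + ENZ range. Hsd11b1, the enzyme that regenerates active glucocorticoid, had an interaction of 0.86 (adjusted p = 0.331). It was higher with drug in fasted mice (1.60, adjusted p = 0.0114), with 14.6, 7.699, 8.98 and 6.09 CPM under ADF and 35.1, 31.5, 28.9 and 17.7 under ADF + ENZ. The glucocorticoid receptor gene Nr3c1 lay at 107 to 162 CPM in the 16 libraries, with an interaction of 0.12 (adjusted p = 0.636).

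Of the 32 androgen response genes tested, 7 passed above 0 and 0 below, and the median interaction was 0.34. They were Fkbp5, Zbtb16, Ndrg1, Herc3, Pdlim5, Tmem50a and Slc38a2, of which Fkbp5 and Zbtb16 are glucocorticoid list members too and Ndrg1 a hypoxia list member. Over the 16 fits the count was 2 to 8. It was 4 without Vehicle 2, 3 without Vehicle 3, ENZ 2, ENZ 3, ADF 2, ADF 3 or ADF + ENZ 3, and 2 without ADF 4 or ADF + ENZ 1. With the percent in no gene as covariate 0 of the 32 passed and the median was 0.35. With the percent aligned to several places 0 passed and the median was 0.47. Fasting without drug lowered 5 of the 32 and raised 0, and fasting on drug raised 4 and lowered 0. Herc3, a ubiquitin ligase, rose with fasting on drug (0.77, edgeR adjusted p = 0.0374), with 21.6, 31.9, 25.7 and 29.2 CPM under ENZ and 46.8, 34.6, 62.2 and 42.1 under ADF + ENZ and no overlap. Its interaction of 1.04 (adjusted p = 0.0288) was lost without Vehicle 3, ENZ 3, ADF 2, ADF 4, ADF + ENZ 1 or ADF + ENZ 3, with values of 0.87 to 1.16.

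Mouse Myc had an interaction of -0.03 (edgeR adjusted p = 0.955) at levels of 79.65 to 153 CPM, and took either sign among the fits. Mouse gene counts do not measure the human MYC transgene, which was not analysed here. Fkbp5 was the 1 gene past the threshold among 16 steroid receptor chaperones and co-chaperones (median 0.19).

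**Figure D3:**
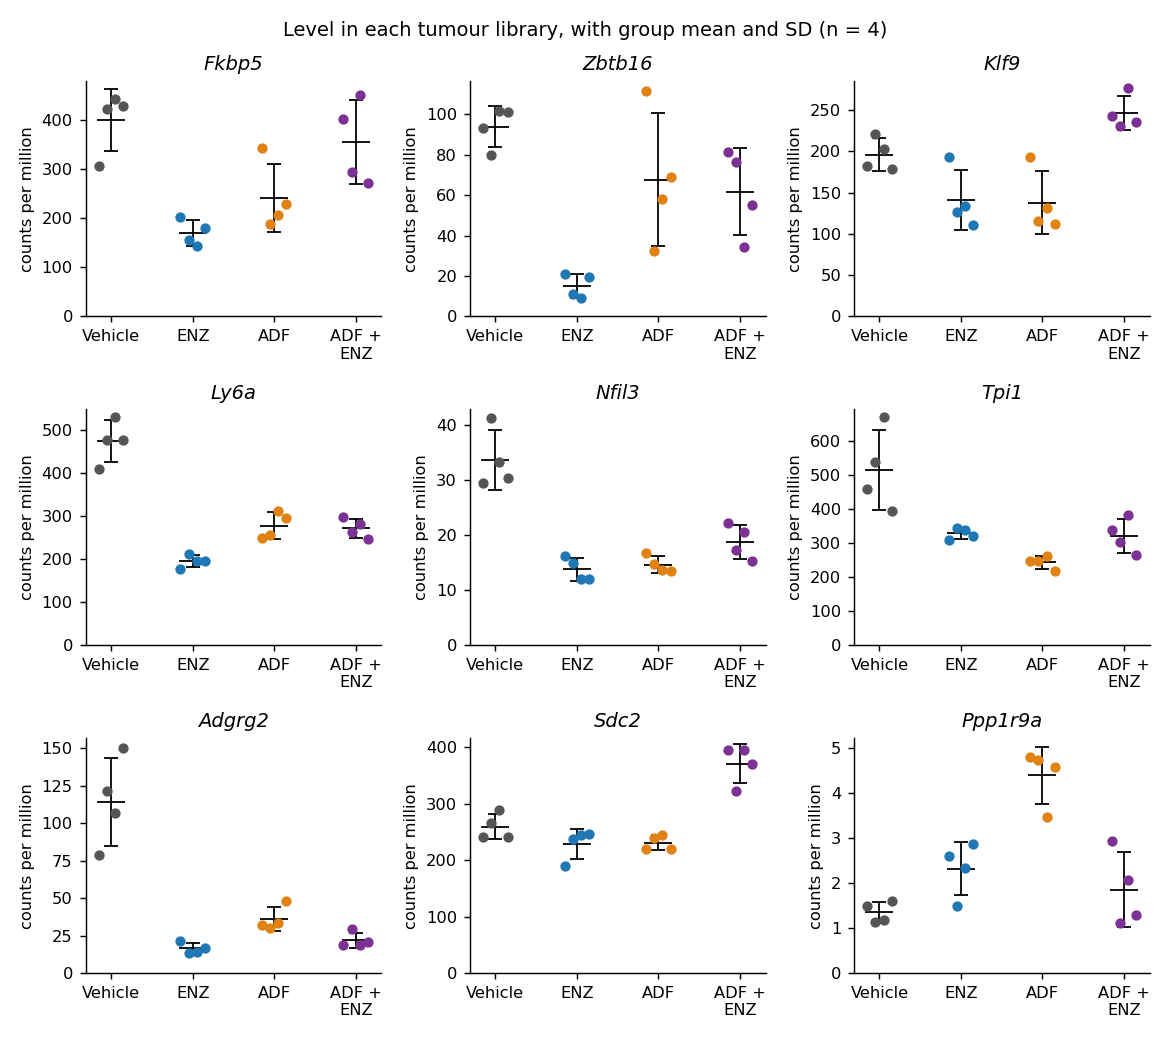
Each point is 1 tumour library, with the level in CPM on a vertical axis that starts at 0, and the bars give the group mean and SD (n = 4). Fkbp5 and Zbtb16 are low in ENZ and higher in ADF + ENZ, Klf9 and Sdc2 are highest in ADF + ENZ, Ly6a, Nfil3, Tpi1 and Adgrg2 are highest in Vehicle, and Ppp1r9a is highest in ADF.

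The smallest p in the contrast belonged to Ly6a (Sca-1), a surface protein of progenitor cells in mouse prostate and blood. Its level was 409, 476, 529 and 477 CPM under Vehicle, 177, 211, 194 and 196 under ENZ, 248, 254.5, 312 and 294 under ADF, and 297, 262, 279.7 and 246.5 under ADF + ENZ. The libraries formed 3 levels with no overlap between them: Vehicle, then ADF and ADF + ENZ together, then ENZ. Fasting lowered Ly6a without drug (-0.77, edgeR adjusted p = 0.000219) and raised it on drug (0.48, adjusted p = 0.0240). The interaction was 1.25 (SE 0.137, adjusted p = 0.0004035), in all 16 fits, and Ly6a was 1 of the 5 positive genes with both fasting effects past the threshold. Ly6c1, a family member found on endothelium and myeloid cells, had means of 353 ± 60.03 CPM under Vehicle, 168 ± 13.98 under ENZ, 209.5 ± 12.7 under ADF and 209.6 ± 26.2 under ADF + ENZ (SD, n = 4). Its interaction was 1.07 (adjusted p = 0.00471). Ly6 genes are close in sequence, so reads may have been split between them. Of all 18946 genes tested, 4027 had an unadjusted p under 0.05 for the interaction and DESeq2 called 1363. No endothelial marker of 10 passed by edgeR (median interaction -0.44, 3 at an unadjusted p under 0.05, and 2 by DESeq2). Their summed level was 425.5 to 689.6 CPM under Vehicle, 421.9 to 825.5 under ENZ, 513.3 to 709.6 under ADF and 347.8 to 709.9 under ADF + ENZ; their part in the Ly6c1 result was not tested.

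Tmem106b, a lysosomal membrane protein, also had both fasting effects past the threshold. It was at 299 to 381 CPM under Vehicle, 176 to 213 under ENZ, 211 to 283 under ADF and 235 to 301 under ADF + ENZ, with ADF reaching into the ENZ range. Its fasting effects were -0.51 (edgeR adjusted p = 0.00730) and 0.46 (adjusted p = 0.0418), and its interaction 0.97 (SE 0.151, adjusted p = 0.00589). Hsd17b11, a dehydrogenase of steroids and lipids, was at 83.4 to 93.4 CPM under Vehicle, above the 49.7 to 60.7 of ENZ, 58.9 to 75.2 of ADF and 63.9 to 71.9 of ADF + ENZ. Its interaction was 0.75 (SE 0.118, adjusted p = 0.00589), the 1 call among 12 steroid-metabolizing enzymes (median 0.17). Samd8, a sphingomyelin synthase relative, held 91.65 to 102 CPM under Vehicle and 89.6 to 95.5 under ADF + ENZ, above 70.2 to 81.3 under ENZ and 65.5 to 80.7 under ADF. Its interaction was 0.68 (adjusted p = 0.00613), and these 3 genes passed in all 16 fits.

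Glycolysis and hypoxia genes fell with fasting in tumours without drug, and none of them passed for fasting on drug. Over all 18946 genes tested, 2982 had an unadjusted p under 0.05 for fasting on drug. Past the adjusted threshold, fasting without drug lowered 4.96% of them, and 2.18% were above 0 for the interaction. Of 22 glycolysis genes tested, fasting without drug lowered 17 and raised 0 (median log2 -0.86), while 0 passed for fasting on drug by edgeR (3 at an unadjusted p under 0.05, median -0.05). For the interaction 12 passed above 0 and 0 below, with a median of 0.74 and 20 of 22 members above 0. Of 25 hypoxia response genes outside glycolysis, fasting without drug lowered 16 (median -0.92), 0 passed for fasting on drug (7 unadjusted, median -0.09), and 11 passed for the interaction (median 0.80). In fed mice enzalutamide lowered 23 of the 47 genes of both lists and raised 0. Whether this bears on the fasting effect on drug was not tested. In fasted mice the drug raised 6 of the 47 and lowered 0.

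The 23 passing genes fell to 10 without Vehicle 2, 9 without Vehicle 3, 11 without ENZ 3, 13 without ENZ 4, 8 without ADF 4, 10 without ADF + ENZ 1 and 7 without ADF + ENZ 3, and 7 of the 23 passed in all 16 fits. Counted apart, the 12 glycolysis genes became 2 to 13. They were 7 or fewer without Vehicle 2, Vehicle 3, any ENZ library, ADF 1, ADF 3, ADF 4, ADF + ENZ 1 or ADF + ENZ 3. The 11 hypoxia genes became 5 to 15, and were 7 or fewer without Vehicle 2, Vehicle 3, ENZ 3, ENZ 4, ADF 4, ADF + ENZ 1 or ADF + ENZ 3. The median interaction over the 47 was between 0.637 and 0.843 in those fits. With the percent in no gene as covariate 0 of the 47 passed and the median was 0.428, and with the percent aligned to several places 0 passed and it was 0.512.

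Along the pathway, the passing genes were the glucose transporter Slc2a1, the hexokinases Hk1 and Hk2, then Gpi1, Aldoa, Aldoc, Tpi1, Gapdh, Pgk1, Pgam1, Pkm and Ldha. The phosphofructokinases Pfkl, Pfkp and Pfkm and the enolase Eno1 did not pass, with interactions of 0.46, 0.78, 0.74 and 0.56. Gapdh, Pgam1, Ldha and other glycolytic genes have processed pseudogenes, and the part of reads aligned to several places in their values was not tested.

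Tpi1, the triose phosphate isomerase, had the smallest p of the glycolysis list. Its level was 459, 538, 671 and 395 CPM under Vehicle, 309, 345.5, 339.6 and 321 under ENZ, 247, 247, 261 and 217 under ADF, and 337, 302, 381.5 and 264 under ADF + ENZ. Vehicle lay above all other libraries and ADF below all others. Its interaction was 1.05 (SE 0.189, edgeR adjusted p = 0.00893), from fasting effects of -1.08 (adjusted p = 0.000207) and -0.03 (adjusted p = 0.928). Hk1, the first enzyme of the pathway, was at 137 to 196 CPM under Vehicle, 104 to 129 under ENZ, 97.8 to 119 under ADF and 114 to 123 under ADF + ENZ (interaction 0.67, adjusted p = 0.0185). Both passed in all 16 fits.

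Ldha, the lactate dehydrogenase subunit that makes lactate from pyruvate, was at 682, 668, 791 and 513 CPM under Vehicle, 528, 546, 552 and 477.5 under ENZ, 341, 373, 349.7 and 272 under ADF, and 439.7, 440.3, 518 and 401 under ADF + ENZ. The ADF libraries were below all others. The interaction was 0.77 (SE 0.172, edgeR adjusted p = 0.0256) and was lost without Vehicle 3, ADF 4 or ADF + ENZ 3, with values of 0.67 to 0.87 over the 16 fits. Pgam1, the phosphoglycerate mutase, had an interaction of 1.08 (adjusted p = 0.0266), with ADF at 95.9 to 116 CPM under ENZ at 132 to 164 and ADF + ENZ at 127 to 212. It was lost without Vehicle 2, ADF 4, ADF + ENZ 1 or ADF + ENZ 3, with values of 0.93 to 1.22.

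**Figure D4:**
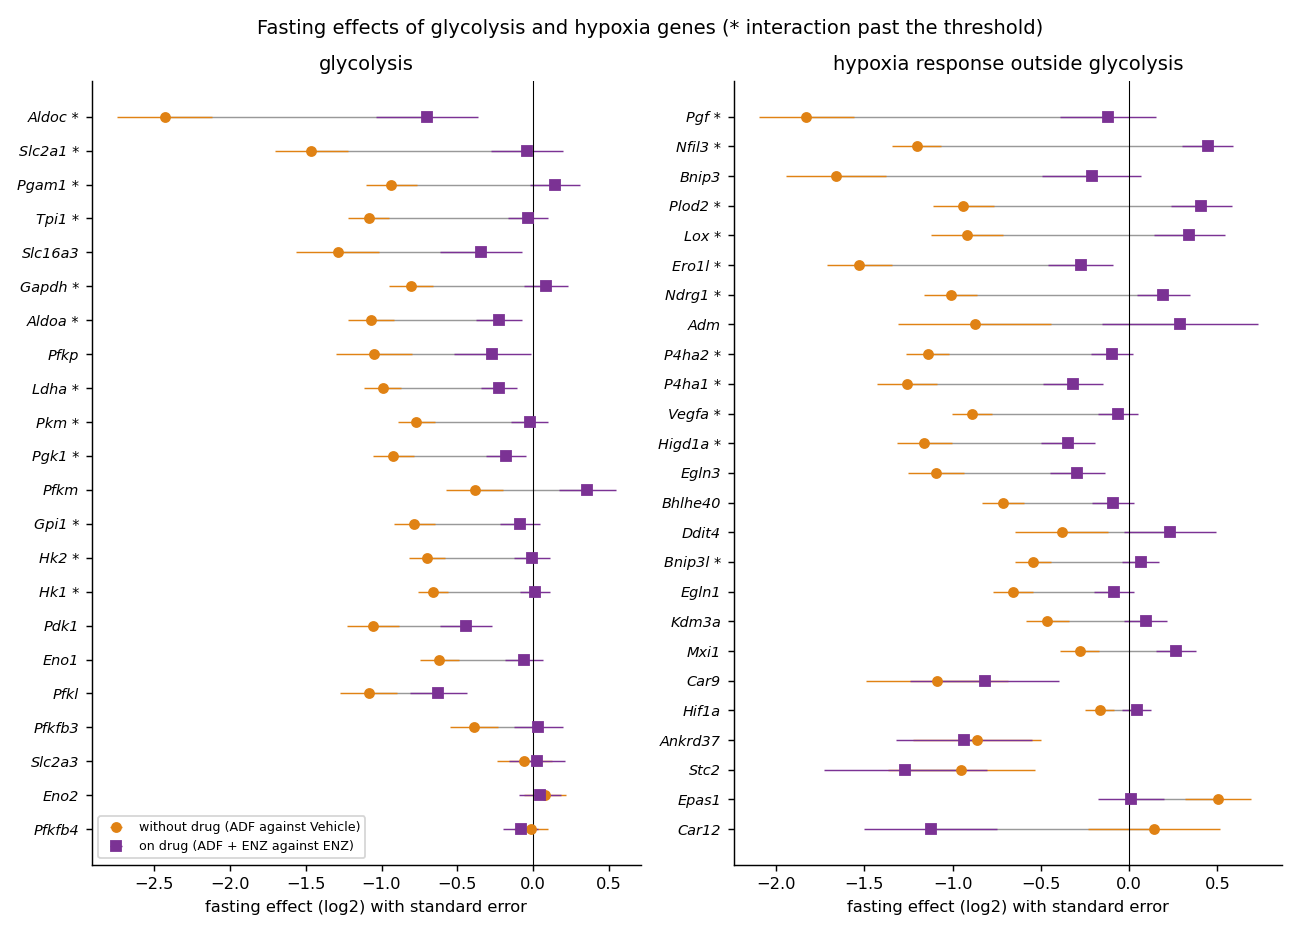
Each row is 1 gene of the glycolysis list (left, 22 genes) or the hypoxia list (right, 25 genes), and the horizontal axis is the log2 fasting effect with its standard error, without drug and on drug. The points without drug have medians of -0.86 and -0.92 and the points on drug of -0.05 and -0.09; stars mark the 12 and 11 genes past the threshold for the interaction.

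Among the hypoxia genes, Nfil3 had the smallest p. Nfil3 is a basic leucine zipper repressor that also acts in the circadian clock. Its level was 29.4, 41.3, 33.25 and 30.4 CPM under Vehicle, 16.2, 14.9, 12.02 and 12.04 under ENZ, 16.8, 14.6, 13.5 and 13.4 under ADF, and 22.1, 17.2, 20.5 and 15.2 under ADF + ENZ. Vehicle stood above the other 12 libraries. The interaction was 1.65 (SE 0.200, edgeR adjusted p = 0.000837, in all 16 fits), with fasting at -1.20 (adjusted p = 0.000207) without drug and 0.44 (adjusted p = 0.134) on drug.

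The prolyl hydroxylase subunit P4ha2 and the lysyl hydroxylase Plod2 both modify collagen. P4ha2 was at 102, 112, 131 and 89.1 CPM under Vehicle, 55.7, 57.8, 61.6 and 53.1 under ENZ, 38.6, 47.97, 58.6 and 51.8 under ADF, and 55.9, 46.8, 57.6 and 53.3 under ADF + ENZ. As for Nfil3, Vehicle alone was high, and the interaction was 1.04 (SE 0.171, edgeR adjusted p = 0.00645). Plod2 had another shape, with 94.45, 117, 97.4 and 88.6 CPM under Vehicle, 59.2, 83.1, 73.8 and 67.3 under ENZ, 37.6, 60.2, 65.9 and 43.4 under ADF, and 90.7, 75.3, 122 and 89.35 under ADF + ENZ. The ADF + ENZ libraries spanned the Vehicle range and all lay above ADF, with an interaction of 1.35 (SE 0.245, adjusted p = 0.0128) and a drug effect in fasted mice of 0.86 (adjusted p = 0.00640). Both passed in all 16 fits.

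Ndrg1, a stress-responsive gene that androgen and hypoxia both induce, was at 152 to 274.5 CPM under Vehicle and 85.75 to 128 in the other 12 libraries (interaction 1.20, SE 0.210, edgeR adjusted p = 0.00900, in all 16 fits). Pgf, a placental growth factor of the VEGF family, was at 64.5 to 83.1 CPM under Vehicle and 11.03 to 30.55 in all others. Its interaction of 1.71 (adjusted p = 0.0315) was lost without Vehicle 2, Vehicle 3, ENZ 3, ENZ 4, ADF 2, ADF 4, ADF + ENZ 1 or ADF + ENZ 3, with values of 1.48 to 1.95. Vegfa, the vessel growth factor, had an interaction of 0.83 (adjusted p = 0.0128), with means of 308 CPM under Vehicle, 271 under ENZ, 166 under ADF and 259.7 under ADF + ENZ. Hif1a and Epas1, which encode hypoxia-inducible factor subunits, had interactions of 0.21 (adjusted p = 0.314) and -0.49 (adjusted p = 0.301).

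Promoters of 3 genes are shown, Ldha and P4ha2 because these list members moved together, and Mt1 because it had the smallest p on the glucocorticoid list. Ldha (chr7:46845554-46845853, plus strand), P4ha2 (chr11:54100674-54100973, plus strand) and Mt1 (chr8:94178839-94179138, plus strand) are from RefSeq on GRCm38.p6, from 250 bases before to 50 after the start. Capitals mark runs that hold ACGTG or CACGT in Ldha and P4ha2, and TGCNCNC or GNGNGCA, the core of the metal response element, in Mt1.
Ldha: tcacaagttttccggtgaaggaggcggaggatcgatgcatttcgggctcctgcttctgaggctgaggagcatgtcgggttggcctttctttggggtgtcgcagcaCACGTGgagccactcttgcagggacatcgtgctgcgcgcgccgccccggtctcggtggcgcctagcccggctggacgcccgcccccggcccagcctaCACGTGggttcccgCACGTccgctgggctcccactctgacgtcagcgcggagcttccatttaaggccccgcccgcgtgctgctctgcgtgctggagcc
P4ha2: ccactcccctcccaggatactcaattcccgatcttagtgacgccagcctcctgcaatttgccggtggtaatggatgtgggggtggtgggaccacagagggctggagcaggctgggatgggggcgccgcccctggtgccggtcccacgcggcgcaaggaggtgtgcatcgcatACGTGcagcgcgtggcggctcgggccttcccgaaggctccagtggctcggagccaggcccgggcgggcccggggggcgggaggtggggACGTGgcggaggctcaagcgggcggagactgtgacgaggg
Mt1: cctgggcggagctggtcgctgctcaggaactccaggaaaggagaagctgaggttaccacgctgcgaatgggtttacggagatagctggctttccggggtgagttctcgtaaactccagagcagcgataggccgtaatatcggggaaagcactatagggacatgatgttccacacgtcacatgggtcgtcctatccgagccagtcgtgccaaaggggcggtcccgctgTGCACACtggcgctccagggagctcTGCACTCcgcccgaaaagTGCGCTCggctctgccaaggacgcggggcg
Of the 23 passing glycolysis and hypoxia genes, 18 matched a promoter by symbol, and 10 of the 18 held ACGTG or CACGT (55.6%), among them Ldha with 3 runs and P4ha2 with 2. The share was 25% over 11628 matched promoters of genes tested and 19.7% over all 27025 in the table. The same letters stood in 5 of the 7 matched promoters of passing androgen and glucocorticoid list genes (71.4%), a higher share. Tpi1, Hk1 and Nfil3 held no such letters in this window. A match is a description of letters.

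Mt1, the metallothionein that binds zinc and copper and that glucocorticoid and metals induce, was at 126, 171, 178 and 142 CPM under Vehicle, 90.6, 91.04, 83.5 and 96.1 under ENZ, 81.7, 71.96, 80.1 and 78.7 under ADF, and 96.6, 100.4, 129 and 89.96 under ADF + ENZ. All ADF libraries were below all others, and all Vehicle libraries except Vehicle 1 were above all others. The interaction was 1.18 (SE 0.159, edgeR adjusted p = 0.00223), and it held in each of the 16 fits. The printed Mt1 promoter holds 3 runs of the metal response core, which 59.0% of promoters of genes tested hold. Mt2 had an interaction of 0.83 (adjusted p = 0.310), and Mt1 and Gclc were the passing genes among 21 of the metallothionein and oxidative stress list (median 0.18).

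Outside those pathways, other genes had their highest group mean in Vehicle. Adgrg2, an adhesion G protein-coupled receptor of the male reproductive tract, was at 78.99, 121, 107 and 149.9 CPM under Vehicle, 21.6, 13.85, 14.5 and 16.7 under ENZ, 32.4, 30.6, 33.2 and 48.3 under ADF, and 18.95, 29.4, 19.1 and 21.2 under ADF + ENZ. ADF lay between Vehicle and the drug groups without overlap. Fasting lowered it without drug (-1.66, edgeR adjusted p = 0.0004245), the fasting effect on drug was 0.42 (adjusted p = 0.367), and the interaction was 2.08 (SE 0.299, adjusted p = 0.00589).

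Nr1h4, the bile acid receptor FXR, was at 14.98 to 15.3 CPM under Vehicle, 1.08 to 3.22 under ENZ, 3.08 to 5.735 under ADF and 1.205 to 2.86 under ADF + ENZ. The drug effect was -3.12 in fed mice (edgeR adjusted p = 2.37e-06) and -1.10 in fasted mice (adjusted p = 0.0144), and the interaction was 2.02 (adjusted p = 0.0128). Synm, the intermediate filament protein synemin, was at 33.6 to 50.8 CPM under Vehicle, 6.62 to 8.95 under ENZ, 10.8 to 19.1 under ADF and 5.48 to 10.05 under ADF + ENZ (interaction 1.74, adjusted p = 0.00787). Suox, the mitochondrial sulfite oxidase, was at 80.6 to 83.75 CPM under Vehicle and 23.95 to 46.02 in the other 12 libraries (interaction 1.35, SE 0.166, adjusted p = 0.000837). Adgrg2, Nr1h4, Synm and Suox each passed in all 16 fits.

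Arl4a, a small GTPase, was at 80.6 to 96.5 CPM under Vehicle and 44.5 to 66.1 elsewhere (interaction 0.996, edgeR adjusted p = 0.00471). Foxc1, a forkhead factor of mesenchyme, was at 46.9 to 81.9 CPM under Vehicle, 21.05 to 30.3 under ENZ, 26.3 to 35.98 under ADF and 26.5 to 52.04 under ADF + ENZ (1.75, adjusted p = 0.0102), and both passed in all 16 fits. Il18r1, a receptor subunit for interleukin 18, was at 37.15 to 55.2 CPM under Vehicle and 5.81 to 26.6 elsewhere. Its interaction of 1.65 (adjusted p = 0.0324) was lost without Vehicle 2, Vehicle 3, ENZ 2, ENZ 3, ENZ 4, ADF 2, ADF 3, ADF + ENZ 3 or ADF + ENZ 4, with values of 1.49 to 1.95. It was the 1 gene past the threshold among 25 acute phase and inflammation genes (median 0.51), of which fasting lowered 8 without drug and 1 on drug. The glycolysis gene Aldoc and the coagulation factor gene F10 had low counts, with means of 4.102 ± 1.12 and 3.51 ± 1.303 CPM under Vehicle (SD, n = 4). They passed in 2 and 4 of the 16 fits.

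A smaller group rose with fasting on drug and was highest in ADF + ENZ. Chst11, a chondroitin sulfotransferase, was at 75.9, 78.4, 77.7 and 68.8 CPM under Vehicle, 59.6, 65.9, 68.9 and 68.4 under ENZ, 57.2, 61.4, 61.2 and 64.6 under ADF, and 128, 80.8, 133 and 107 under ADF + ENZ. All ADF + ENZ libraries lay above all others. Fasting raised it on drug by 0.77 (edgeR adjusted p = 0.00449) and the effect without drug was -0.30 (adjusted p = 0.102), an interaction of 1.07 (SE 0.162, adjusted p = 0.00515). Sdc2, the heparan sulfate proteoglycan syndecan-2, was at 242, 265.5, 289 and 242 CPM under Vehicle, 189.5, 238, 245 and 246 under ENZ, 219.6, 240.3, 244 and 220.5 under ADF, and 396, 323, 396 and 371 under ADF + ENZ. Here too the ADF + ENZ libraries were above all others. Its fasting effects were -0.17 (adjusted p = 0.2765) and 0.69 (adjusted p = 0.00326), and its interaction was 0.86 (SE 0.135, adjusted p = 0.00589). Both passed in all 16 fits.

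Fn1, the matrix glycoprotein fibronectin, was at 9912, 14840, 10800 and 9283 CPM under Vehicle, 5304, 6123, 4880 and 5120 under ENZ, 5128, 9727, 9041 and 8604 under ADF, and 10970, 8088, 11550 and 9232 under ADF + ENZ. The ENZ libraries were below all ADF + ENZ and Vehicle libraries, and ADF 1 fell within the ENZ range. Fasting on drug raised Fn1 by 0.89 (edgeR adjusted p = 0.0250), with an interaction of 1.36 (SE 0.259, adjusted p = 0.0126, in all 16 fits). It was the 1 gene past the threshold of 32 TGF-beta and matrix genes (median 0.11). Among all 18946 genes tested, 4027 had an unadjusted p under 0.05 for the interaction and DESeq2 called 1363. None of 10 fibroblast markers passed by edgeR (3 at an unadjusted p under 0.05, and 0 by DESeq2). Their summed level was 10960 to 12770 CPM under Vehicle, 9400 to 10410 under ENZ, 8864 to 12530 under ADF and 11440 to 13410 under ADF + ENZ, and its part in the Fn1 result was not tested. In whole tumours, a change in the number of cells of a type and a change in RNA per cell cannot be told apart.

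Among low-count genes, Megf10, an engulfment receptor, had an interaction of 5.36 (SE 1.06, edgeR adjusted p = 0.0230). It was at 3.39, 5.43, 11.9 and 4.475 CPM under Vehicle, 0.895, 1.501, 0.601 and 0.7475 under ENZ, 1.199, 0.592, 1.102 and 0.502 under ADF, and 13.4, 0.664, 2.63 and 3.84 under ADF + ENZ. ADF + ENZ 2 lay within the ENZ range and the other 3 above it, and the call was lost without ADF 4, with values of 4.30 to 5.74. Atp6v0d2, a subunit of the proton pump of osteoclasts and macrophages, was at 2.32 to 3.86 CPM under Vehicle, 0.457 to 2.525 under ENZ, 0.860 to 1.65 under ADF and 1.925 to 5.13 under ADF + ENZ. Its interaction of 2.80 (adjusted p = 0.0233) was lost without Vehicle 3 or ADF 4, with values of 2.44 to 3.50. Of 10 macrophage markers 1 passed, Cd68 at 0.68, while 3 of the 10 had an interaction above 0 and the list median was -0.13. Their summed level was 1296 to 1774 CPM under Vehicle, 1242 to 1729 under ENZ, 1332 to 1574 under ADF and 1179 to 1593 under ADF + ENZ, overlapping between all groups.

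Protein folding, lipid and amino acid genes gave fewer calls. Among all genes tested, fasting without drug lowered 4.96%, fasting on drug lowered 0.274%, and 2.18% passed above 0 for the interaction. Of 24 genes for ER chaperones and the unfolded protein response, fasting without drug lowered 13 and raised 0, fasting on drug lowered 1, and 3 passed for the interaction (Herpud1, P4hb and Canx; median 0.29). Herpud1, which helps degrade misfolded ER proteins, was at 68.6, 69.4, 69.4 and 79.6 CPM under Vehicle, 53.05, 58.3, 64.2 and 62.8 under ENZ, 48.9, 50.2, 52.99 and 57.1 under ADF, and 76.6, 66.1, 68.5 and 67.9 under ADF + ENZ. ADF + ENZ lay above ENZ and ADF and overlapped Vehicle (interaction 0.68, SE 0.117, edgeR adjusted p = 0.00787, in all 16 fits). P4hb, a disulfide isomerase, had an interaction of 0.75, lost without ADF 4 or ADF + ENZ 3 (0.66 to 0.84). Canx, the chaperone calnexin, had one of 0.63, lost without Vehicle 2, Vehicle 3, ADF 4, ADF + ENZ 1 or ADF + ENZ 3 (0.56 to 0.69). Without ADF 4 or without ADF + ENZ 3 the count of the list was 1. The list median was 0.03 with the percent in no gene as covariate and 0.17 with the percent aligned to several places.

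Of 18 fatty acid synthesis genes, 2 passed (median 0.21), the stearoyl-CoA desaturases Scd1 (0.79, edgeR adjusted p = 0.0209) and Scd2 (0.73, adjusted p = 0.0293), which are close in sequence. Scd1 was at 299.6, 326.5, 359.6 and 280.2 CPM under ADF and 475, 472, 529 and 427 under ADF + ENZ, with 342 to 462 under Vehicle and 301 to 438 under ENZ. The drug raised Scd1 in fasted mice (0.59, adjusted p = 0.00506) and the difference in fed mice was -0.20 (adjusted p = 0.360). Scd1 was lost without ADF 4 or ADF + ENZ 3 (0.71 to 0.90), and Scd2 without Vehicle 2, Vehicle 3, ENZ 3, ADF 4, ADF + ENZ 1 or ADF + ENZ 3 (0.62 to 0.81). Over all 18946 genes tested, 4027 had an unadjusted p under 0.05 for the interaction. Of 25 cholesterol synthesis and uptake genes 0 passed for the interaction by edgeR (7 at an unadjusted p under 0.05, 0 by DESeq2 or limma-voom), with a median of 0.47. Fasting lowered 8 of them without drug and 0 on drug (4.96% and 0.274% of all genes tested). That median was 0.01 with the percent in no gene as covariate and 0.69 with the percent aligned to several places.

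Among all genes tested, fasting without drug lowered 4.96%, fasting on drug raised 0.813%, and 2.18% passed above 0 for the interaction. Of 38 ATF4 and amino acid response genes, fasting without drug lowered 8 and raised 0, and fasting on drug raised 1 and lowered 0. For the interaction 3 of the 38 passed (median 0.29). They were Phgdh of serine synthesis (0.83), Mthfd2 of the mitochondrial folate cycle (0.74) and the neutral amino acid transporter Slc1a4 (0.90). Mthfd2 was at 37.2 to 40.99 CPM under Vehicle, above 22.4 to 34.01 under ENZ, 19.5 to 23.7 under ADF and 20.04 to 28.2 under ADF + ENZ. The count of the list was 0 without Vehicle 2, Vehicle 3, ADF 4, ADF + ENZ 1 or ADF + ENZ 3, 1 without ENZ 2, ENZ 4 or ADF 3, and 5 without ADF 1 or ADF + ENZ 2. Its median was 0.04 with the percent in no gene as covariate and 0.17 with the percent aligned to several places. Of 21 FOXO and fasting-induced genes, 3 passed, Pik3ip1, Ccng2 and Bcl6 (median 0.09). Pik3ip1, an inhibitor of PI3 kinase, was at 45.85 to 58.8 CPM under Vehicle, above 18.1 to 31.05 under ENZ, 30.03 to 42.7 under ADF and 27.5 to 33.3 under ADF + ENZ (0.997, edgeR adjusted p = 0.0181, in all 16 fits).

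Of 32 autophagy and lysosome genes, fasting without drug lowered 11 and raised 1, and fasting on drug raised 1 and lowered 1. Among all genes tested, fasting without drug lowered 4.96%, fasting on drug raised 0.813%, and 2.18% passed above 0 for the interaction. For the interaction 4 of the 32 passed (median 0.31). They were Ctsl at 0.83, Npc1 at 0.61, Atg12 at 0.55 and Psap at 0.46. Npc1, the lysosomal cholesterol exporter, rose with fasting on drug (0.40, edgeR adjusted p = 0.0426), with 89.65, 103.5, 91.3 and 101 CPM under ENZ and 135, 111, 145 and 119 under ADF + ENZ. Its interaction was lost without Vehicle 3, ADF + ENZ 1 or ADF + ENZ 3 (0.53 to 0.67). The count of the list was 0 without Vehicle 3, ADF + ENZ 1 or ADF + ENZ 3, 1 without Vehicle 2, ENZ 1, ENZ 3, ENZ 4, ADF 2, ADF 3 or ADF 4, and 7 without Vehicle 4 or ADF 1. Its median was 0.16 with the percent in no gene as covariate and 0.21 with the percent aligned to several places.

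Single members passed in several other lists. Of all genes tested 2.18% passed above 0, and from 1 passing member nothing is read about its list. Eif1, which selects the start codon in translation, passed at 0.62 (1 of 40 translation and mTOR genes, median 0.17) and was lost without Vehicle 2, Vehicle 3, ENZ 2, ENZ 3, ENZ 4, ADF 3, ADF 4, ADF + ENZ 1 or ADF + ENZ 3 (0.53 to 0.69). Pes1, a ribosome assembly factor, passed at 0.54 (1 of 32 ribosome biogenesis genes, median 0.01) and was lost without Vehicle 2, Vehicle 3, ENZ 1, ENZ 2, ENZ 3, ENZ 4, ADF 3, ADF 4, ADF + ENZ 1 or ADF + ENZ 3 (0.43 to 0.61). The co-chaperone Bag3 passed at 0.46 (1 of 17 heat shock genes, median 0.22) and was lost without Vehicle 3, ADF 4 or ADF + ENZ 3 (0.42 to 0.49). Klf4, a Krüppel-like factor, passed at 1.16 (1 of 22 immediate early genes, median 0.19) and was lost without Vehicle 2 or ADF 4 (0.94 to 1.29). In the circadian clock list of 16 genes, Nfil3 passed above 0 and Per3, a period protein, below 0 (-0.82, edgeR adjusted p = 0.0499). Per3 was at 28.2, 46.7, 39.5 and 34.8 CPM under ADF and 27.7, 27.4, 18.6 and 22.6 under ADF + ENZ, without overlap, and passed in 4 of the 16 fits, those without Vehicle 4, ENZ 3, ADF 1 or ADF + ENZ 2.

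No member passed for the interaction by edgeR in 8 further lists. Over all 18946 genes tested, 4027 had an unadjusted p under 0.05 for the interaction and DESeq2 called 1363. The count at an unadjusted p under 0.05 was 16 of 47 for oxidative phosphorylation (median 0.24, 4 called by DESeq2), 3 of 15 for mitochondrially encoded genes (0.36, 2 by DESeq2) and 13 of 57 for cytosolic ribosomal proteins (0.24, 1 by DESeq2). It was 3 of 21 for fatty acid oxidation and ketone genes (0.16, 1 by DESeq2), 2 of 36 for S phase (-0.12, 1 by DESeq2) and 1 of 32 for mitosis (0.03, 1 by DESeq2). It was 9 of 39 for the interferon response (-0.01, 3 by DESeq2) and 3 of 20 for antigen presentation (0.50, 1 by DESeq2). With the percent in no gene as covariate the median was -0.06 for oxidative phosphorylation, -0.09 for cytosolic ribosomal proteins and 0.82 for antigen presentation. With the percent aligned to several places as covariate these medians were 0.23, -0.03 and 0.89. The drug raised 25 of the 47 oxidative phosphorylation genes and 28 of the 57 ribosomal protein genes in fasted mice, and 2 and 0 in fed mice. Among all genes tested it raised 8.72% in fasted mice and 1.81% in fed mice. With either covariate 0 genes passed for the drug in fasted mice, against 3081 without one. The difference between diets is the interaction, in which none of the genes of these lists passed. Among the 16 cell type lists, Cd68 was the 1 marker past the threshold, in a list with a median of -0.13. T cell and NK cell markers (10 and 4 genes tested) had medians of 0.79 and 1.345 with none past the threshold, at summed levels of at most 30.1 and 7.32 CPM in a library. Other low-count lists lay on both sides of 0, with medians of -1.12 for neutrophil, -0.85 for mast cell and basophil, -0.65 for adipocyte and 0.85 for skeletal muscle markers.

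Genes with a negative interaction were low in count and mixed in class. Their median level was 4.735 CPM, against 82.0 for the positive genes, and 112 of the 174 differed by more than 2-fold. By annotation 89 were protein-coding, 43 were TEC models, which are unverified transcripts, and 34 were long noncoding RNAs, whereas 394 of the 413 positive genes were protein-coding. Over all tested genes of each class the median interaction was -0.52 for 1199 TEC models, -0.37 for 2064 long noncoding RNAs and 0.04 for 13766 protein-coding genes. The share of gene counts in TEC models was 0.512% ± 0.0697 under ADF, 0.364% ± 0.0535 under Vehicle, 0.369% ± 0.0598 under ENZ and 0.324% ± 0.0303 under ADF + ENZ (SD, n = 4), beside the percent in no gene given above; their part in the negative set was not tested. Fitted on protein-coding genes alone, 350 genes passed, 254 above 0 and 96 below.

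Of the protein-coding genes with the largest negative values, Ppp1r9a (neurabin, an actin-binding scaffold of protein phosphatase 1) was highest in ADF. It was at 1.49, 1.14, 1.18 and 1.602 CPM under Vehicle, 2.595, 1.501, 2.34 and 2.865 under ENZ, 4.797, 4.74, 3.46 and 4.59 under ADF, and 2.94, 1.13, 2.08 and 1.29 under ADF + ENZ, with every ADF library above all others. Its interaction was -2.07 (SE 0.390, edgeR adjusted p = 0.0119). Rflna (refilin A, a filamin partner) was at 3.62 to 5.09 CPM under ADF, 0.713 to 2.099 under Vehicle, 2.32 to 3.76 under ENZ and 1.225 to 2.19 under ADF + ENZ (-2.17, adjusted p = 0.0119). Exoc3l4, an exocyst-related gene, was 1 of 2 negative genes with both fasting effects past the threshold. It was at 2.08, 2.74, 1.702 and 2.76 CPM under Vehicle, 6.799, 3.28, 4.33 and 4.73 under ENZ, 3.76, 5.33, 3.70 and 3.66 under ADF, and 2.45, 2.32, 1.53 and 2.303 under ADF + ENZ. All libraries with 1 treatment lay above all libraries with neither or both. Its fasting effects were 0.82 (adjusted p = 0.0349) and -1.12 (adjusted p = 0.0290), and its interaction was -1.94 (SE 0.334, adjusted p = 0.00787).

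Atp2b3, a plasma membrane calcium pump, was low in Vehicle alone, at 1.37 to 2.38 CPM against 2.78 to 8.47 in the other 12 libraries (-1.90, SE 0.388, edgeR adjusted p = 0.0179). Ppp1r9a, Rflna, Exoc3l4 and Atp2b3 passed in all 16 fits. Psapl1, a prosaposin-like protein, was at 0.393 to 1.31 CPM under Vehicle and 1.715 to 6.31 elsewhere (-2.12, adjusted p = 0.0261), and was lost without Vehicle 2, Vehicle 3, ADF 4 or ADF + ENZ 1 (-2.38 to -1.81). The antisense transcript Pmepa1os had the most negative value of the named genes, -2.75 (adjusted p = 0.0275), from 0.196 to 0.773 CPM under Vehicle and 0.630 to 3.16 elsewhere, and was lost without Vehicle 3, ADF 2, ADF 4, ADF + ENZ 1 or ADF + ENZ 3 (-3.05 to -2.50). The sources used here do not say whether counting used strand, so its reads and those of Pmepa1, an androgen and TGF-beta target, cannot be told apart. Pmepa1 had an interaction of -0.56 (adjusted p = 0.133). Ldb3, Nat8l, Tg, Tmem88b, P4ha3 and Adam33 completed this set with values from -2.47 to -1.73, and passed in 3 to 8 of the 16 fits.

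The genes whose levels were most like those of Fkbp5 over the 16 libraries, by the Pearson correlation of log2 CPM, were Cblb (0.935), Usp54 (0.908), Ecm1 (0.906), Tmem106b (0.9005), AC138228.3 (0.887), Tmem43 (0.8855), Myo1e (0.885) and Kdm5a (0.8835). The libraries share their treatment groups, so these values describe a common order of groups. All but Kdm5a (0.40, edgeR adjusted p = 0.058) passed for the interaction, and all but Kdm5a and AC138228.3 passed in all 16 fits. These calls follow in part from choosing genes by likeness to Fkbp5, which passed, and are given as description. Cblb, a ubiquitin ligase that restrains immune receptor signalling, had means of 72.7 CPM under Vehicle, 44.8 under ENZ, 55.75 under ADF and 65.7 under ADF + ENZ (0.93, adjusted p = 0.00613). Ecm1, a secreted matrix protein, had means of 284.5, 185, 202 and 264 CPM in the same order (1.003, adjusted p = 0.00945).

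**Figure D5:**
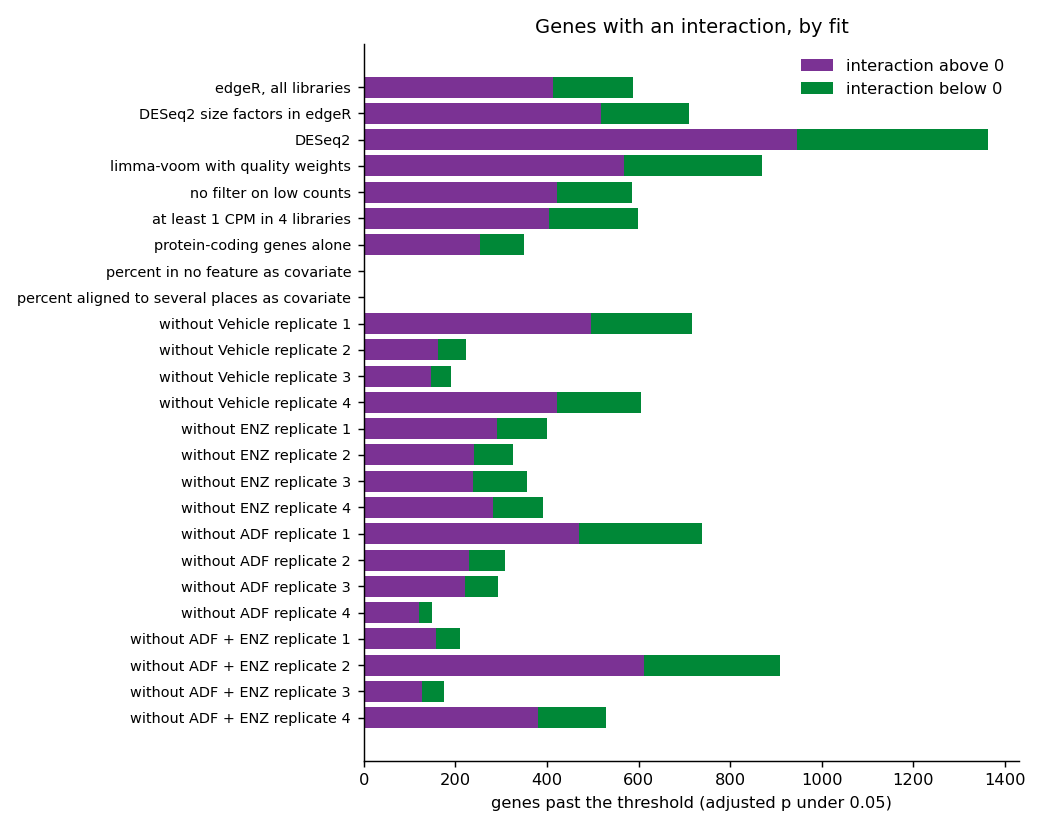
Each bar is 1 fit, with the number of genes past the threshold for the interaction on the horizontal axis, split into values above 0 and below 0. The count is 587 in edgeR with all libraries, 1363 in DESeq2, 148 to 908 with 1 library left out, and 0 and 2 with the library measures as covariates.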

How the data were processed

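RNA of 16 whole tumours was sequenced, 4 libraries in each of 4 groups. The deposited table holds read counts per gene made by the authors; per the submitters' processing notes Trim Galore, HISAT2, featureCounts and DESeq2 were used with builds mm39 and GRCh38, and no version, role or strand setting is given in the sources used here. The 5 entries that name no gene (43.5% to 53.1% of counts) were left out of library sizes and tests. Of 55414 gene IDs, 52081 had a symbol in the GENCODE table. Genes were kept with edgeR's filterByExpr (minimum count 10, total 15), scaled by TMM and fitted with edgeR 4.0.16's robust quasi-likelihood test in R 4.3.3 on all groups, with Benjamini-Hochberg adjustment within each contrast. The test was tested on simulated data. Replicate pairs differed by more than sampling noise (chi-square per degree of freedom 5.188 to 33.929). Alternatives were DESeq2 1.42.0 and its size factors, limma-voom (limma 3.58.1), other filters, protein-coding genes alone, 2 library measures as covariates and leaving out each library. Members and lists were chosen with earlier results of these data known. Named genes were the 12 with the largest interaction in each direction among called genes of at least 1 CPM on average, the 12 with the smallest p, up to 4 passing members of each list, and further genes listed in the design. Withheld genes are not reported here.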

Additional observations from a re-analysis of the deposited data

Results flagged for a closer look

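The interaction tests whether the fasting effects in the 2 drug states differ, and each gene of this paragraph passed that test (edgeR adjusted p under 0.05). Values are log2 differences between the fasting effect on enzalutamide and the fasting effect without it. The first values above 0 were Megf10 5.36, Atp6v0d2 2.80, Zbtb16 2.51, F10 2.13, Adgrg2 2.08, Nr1h4 2.02, Fkbp5 1.79, Foxc1 1.75, Synm 1.74, Aldoc 1.73, Pgf 1.71, Il18r1 1.65, Nfil3 1.65 and Fn1 1.36. Next in the order of the named genes were Suox 1.35, Plod2 1.35, Klf9 1.31, Ly6a 1.25, Ndrg1 1.20, Mt1 1.18, Klf4 1.16, Pgam1 1.08, Chst11 1.07, Ly6c1 1.07, Tpi1 1.05, P4ha2 1.04, Herc3 1.04 and Pik3ip1 0.997. After them came Arl4a 0.996, Tmem106b 0.97, Slc1a4 0.90, Sdc2 0.86, Ccng2 0.85, Gclc 0.83, Ctsl 0.83, Phgdh 0.83, Bcl6 0.79, Scd1 0.79, Ldha 0.77, Hsd17b11 0.75, P4hb 0.75 and Mthfd2 0.74. Further values above 0 were those of Scd2 0.73, Samd8 0.68, Herpud1 0.68, Hk1 0.67, Canx 0.63, Eif1 0.62, Npc1 0.61, Atg12 0.55, Pes1 0.54, Psap 0.46 and Bag3 0.46. Below 0 were Per3 -0.82, Adam33 -1.73, P4ha3 -1.77, Atp2b3 -1.90, Exoc3l4 -1.94, Tmem88b -1.95, Tg -1.95, Ppp1r9a -2.07, Psapl1 -2.12, Rflna -2.17, Nat8l -2.18, Ldb3 -2.47 and Pmepa1os -2.75.

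In single groups of 4 libraries, 1 library stood far from the other 3 in 16 of 280 groups checked, by Dixon's test at its 95% critical value, and chance gives about 1 in 20 groups. Levels are in CPM. High in their group were ADF 4 for Adgrg2 (48.3), ADF 1 for Gclc (60.4) and Phgdh (183), Vehicle 4 for Herpud1 (79.6), Per3 (34.8) and Tg (2.65), ENZ 2 for Nr3c1 (154) and ADF 2 for Exoc3l4 (5.33). Low in their group were Vehicle 1 for Fkbp5 (306) and Hsd17b11 (83.4), ADF + ENZ 3 for Synm (5.48) and Exoc3l4 (1.53), ENZ 1 for Sdc2 (189.5) and Psapl1 (1.88), ADF + ENZ 2 for Phgdh (175) and ADF 3 for Ppp1r9a (3.46).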

How the results depend on the processing

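No paired analysis was possible because the tumour numbers in the labels are not shared between groups. DESeq2 called 1363 genes for the interaction (946 above 0 and 417 below), and limma-voom called 301 below 0. On protein-coding genes alone the counts were 350, 254 and 96. With the percent in no gene as covariate edgeR called 0 in either direction (1014 at an unadjusted p under 0.05), and with the percent aligned to several places 2 above 0 and 0 below (1750 unadjusted); these covariates were run in edgeR alone. For fasting without drug the counts were 1119 on protein-coding genes, 6 with the first covariate and 0 with the second (850 unadjusted). For fasting on drug they were 693 by DESeq2, 43 with the first covariate and 1 with the second. For the drug in fed mice they were 1594 by DESeq2, 1655 by limma-voom and 678 with the second covariate. For the drug in fasted mice they were 1922 on protein-coding genes and 0 with either covariate (589 and 1719 unadjusted). Leaving out 1 library gave 148 to 908 genes for the interaction, 121 to 611 above 0 and 27 to 297 below. It gave 610 to 1927 for fasting without drug, 20 to 358 for fasting on drug, 403 to 1194 for the drug in fed mice and 1197 to 3439 for the drug in fasted mice. Of the named genes, Myc ran from -0.1342 to 0.1281 with 1 library left out and turned positive in limma-voom (0.0483) and without Vehicle 2 (0.0153), ENZ 1 (0.0327), ENZ 2 (0.0470), ADF 1 (0.1281) or ADF + ENZ 1 (0.0539). Of the other named values over all alternatives, 1254 kept direction and side of the threshold and 419 kept direction and lost the call. The causes were not tested. With 4 libraries a group, low-count genes such as Megf10 have wide errors.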
